A study of Mus musculus with 42 samples.

Results

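The genes described here encode the SR proteins and the heterogeneous nuclear ribonucleoproteins (hnRNPs), 33 genes chosen by symbol: 12 SR protein genes (Srsf1 to Srsf7, Srsf9 to Srsf11, Tra2a and Tra2b) and 21 hnRNP genes (the Hnrnp genes with Ptbp1, Pcbp1 and Pcbp2). All 33 were among the 12364 genes of the RNA-seq files and among the 13535 genes with a polyadenylation site (PAS) in the 3′READS files, a PAS being assigned to a gene when it lay in its mm9 span or up to 4000 nt downstream on the same strand and before the next gene. The cells were NIH3T3, a mouse embryonic fibroblast line, and C2C12, a mouse myoblast line that fuses into multinucleate myotubes, both labelled with the strain C57BL/6. NIH3T3 cells were non-treated (NT), kept in 250 µM sodium arsenite for 1 h (AS), or returned to normal medium after AS for 4, 8, 12 or 24 h (RC4, RC8, RC12 and RC24). C2C12 cells were taken as myoblasts (MB) or as myotubes after differentiation (MT), non-treated, AS or RC4, and all C2C12 libraries carried the source label myoblast. Every library came from one of these lines, so no animal or donor stands behind the replicates.

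Several kinds of 3′READS library, which count reads at the cleavage site of poly(A)+ RNA, were made from NIH3T3: total RNA (NT and AS, 3 libraries each, 1 for each recovery time), newly made RNA labelled with 50 µM 4-thiouridine (4sU) in the last 1 h before harvest, the flow-through (Ft) that holds RNA made earlier (NT 2, AS 1 and RC4 1 in each fraction), and cytoplasmic RNA before (input) and after immunoprecipitation with an antibody to TIA1 (2 libraries each, NT and AS). C2C12 gave total RNA of MB and MT (2 libraries each) and cytoplasmic RNA (NT 2, AS 1 and RC4 1 in each cell state). Strand-specific RNA-seq of NIH3T3 (NT 2, AS 1, RC4 1) completed the set of 42 libraries. In the RNA-seq, fraction and cytoplasmic sets the NT libraries carried the time labels 0 h and 4 h, 1 each. The 38 3′READS libraries held from 1048335 to 6974664 reads (median 2874186) and the 4 RNA-seq libraries from 17136953 to 25193331. A PAS under 5 reads was not listed in a 3′READS file, so a gene listed at 0 may have had a few reads. Levels are in CPM, read counts brought to 1 common library size, with TMM scaling within each experiment. P-values measure the spread between these libraries, which may be technical.

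SR proteins carry RNA recognition motifs and a domain rich in arginine and serine, whose phosphorylation by SRPK and CLK kinases sets where they sit in the nucleus. They bind exonic enhancers and help the spliceosome to use weak exons. The hnRNPs bind nascent transcripts at U-rich, C-rich, G-rich or UAG-like sequences, often silence exons, and act later in export, stability and translation of mRNA. Transcripts of many genes in both families carry conserved alternative exons and 3′ ends through which their own proteins lower their output.

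The 3′ ends on which the isoform results turn are shown first, as 30 bases of the mm9 (NCBIM37) sense strand that hold the poly(A) signal upstream of each site, or the last 30 bases before the site where none was found. Capitals mark AATAAA or ATTAAA within 45 nt upstream of the site, searched on the sense strand only. The proximal and distal sites (pPAS and dPAS) are the 2 most used sites of the last exon in an experiment, and the stretch between them is the alternative 3′UTR (aUTR).
Hnrnpa2b1 pPAS (chr6:51412760-51412789, minus strand): ttatgatttAATAAAataattctaaaggaa
Hnrnpa2b1 dPAS (chr6:51411872-51411901, minus strand): tgcaagttcAATAAAtgagatttacctatc
Hnrnpa1 pPAS in C2C12, dPAS in NIH3T3 fractions (chr15:103075361-103075390, plus strand): actcAATAAAcgatttaattctcttgaatg
Hnrnpa1 dPAS in C2C12 (chr15:103077093-103077122, plus strand): gtttttttttttaAATAAActttttaatta
Hnrnpa3 pPAS (chr2:75504528-75504557, plus strand): agagcaaaggAATAAAagtcactcattgaa
Hnrnpa3 dPAS in C2C12 (chr2:75507434-75507463, plus strand): accttttcATTAAAatatttttagaaatgt
Srsf1 pPAS (chr11:87864965-87864994, plus strand): ttgaaaaaAATAAAcattttttaaaaaacg
Srsf1 dPAS (chr11:87867223-87867252, plus strand): tgggagtgAATAAAaagctgttaatttgga
Srsf6 pPAS (chr2:162761054-162761083, plus strand): agaccagcAATAAAttattcagtttggcta
Srsf6 dPAS (chr2:162762827-162762856, plus strand): tttatctcAATAAAatgcttaccaagggaa
Hnrnpu pPAS in NIH3T3 fractions (chr1:180259168-180259197, minus strand): tatcacaacaaaagtaaaatgttgctttgt
Hnrnpu dPAS in NIH3T3 fractions (chr1:180251240-180251269, minus strand): tttcATTAAAgtaaaattgttctttcactg
In these 6 pairs the canonical AATAAA stood before most sites, the Hnrnpa3 and Hnrnpu distal sites had ATTAAA, and the Hnrnpu proximal site had neither. The Hnrnpa1 sites lay past the annotated end of the gene, as did the Hnrnpu distal site, which was 1966 nt past it.

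The genes were among the most abundant in NIH3T3. Per kb of coding sequence, 27 of 33 lay in the top 10% of RNA-seq genes in NT cells. Hnrnpab (mean 1529 RNA-seq reads per kb, 2 libraries), Hnrnpa3 (1403) and Hnrnpa1 (1340), whose proteins package nascent RNA, were highest, followed by Hnrnpf (1025). Among SR genes Srsf5 (781) and Srsf3 (697) led, and Srsf4 (73.7) and Hnrnph3 (63.8) were the lowest of the 33. Hnrnpa1, Hnrnpa3 and the Hnrnph and Hnrnpf genes have near-identical copies in the genome, so reads could have been split between copies and these levels are uncertain. In the 3′READS files the picture differed for the G-run binding proteins: Hnrnpf, Hnrnph1 and Hnrnph2 had at most 88, 36 and 26 reads in any library, although they stood at the 98.8, 98.2 and 90.4 percentile of RNA-seq levels per kb.

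The 33 genes used 341 PASs, 260 of them in the 3′UTR, from 1 in Srsf4 to 30 in Hnrnpu, and 24 genes had at least 2 3′UTR sites with 5% of their reads. The 3′UTR up to the main site had a median length of 700 nt, against 699 nt over 13002 genes. Its base composition stood apart more than its length: the median share of U was 35.74% against 28.97%, and the tetramer UUUU, counted in overlapping windows on the sense strand, occurred 28.06 times per kb against 11.36. For UUUU, 32 of the 33 lay above the median of all genes and 15 in the top 10%. Hnrnpl, which binds CA repeats, had the densest run of them (121.39 per kb), followed by Hnrnpu (96.57) and Hnrnpm (68.44), and Hnrnpul2 had the fewest (11.39). A main site with AATAAA was found in 23 genes (69.7%, against 67.23% of all genes), with ATTAAA alone in 5, and with neither in 5. These are descriptions of sequence, and genes of one family share ancestry.

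Sites outside the last exon took at least 10% of reads in few of the genes. An intronic site of Hnrnpa2b1 at chr6:51414426 held 59 of 390 reads in total RNA of NT NIH3T3 cells (15.13%, 95% Wilson interval 11.91 to 19.02%). It held 16 of 526 Ft reads (3.04%) and was not listed at 2% or more of the gene's reads in the other library sets. An intronic site of Hnrnpf at chr6:117867617 held 51 of 69 4sU reads (73.91%, 62.49 to 82.81%) and 41 of 61 Ft reads (67.21%, 54.72 to 77.66%), against 5 of 39 in total RNA of MB (12.82%, 5.6 to 26.71%). Another annotated end of Hnrnph3 at chr10:62480551 held 18 of 98 reads in total RNA (18.37%, 11.95 to 27.17%). All intervals cover counting error only.

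The question of the C2C12 total RNA was which genes and 3′UTR isoforms differ between MB and MT. SR protein and hnRNP mRNAs were lower in MT nearly across the board. With edgeR's quasi-likelihood test 27 of 32 genes fell (29.5% of 10154 genes tested did) and 1 rose (32.1% of genes). The median log2 difference was -0.75, against 0.03 for all genes. By role, 10 of 12 SR genes and 17 of 20 hnRNP genes fell.

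Among SR genes, Srsf2, which encodes a protein of nuclear speckles, stood at 2107 and 1765 CPM in MB and at 629 and 609 in MT (log2 -1.65, SE 0.10, adjusted p = 2.2e-09). Srsf3, the smallest SR protein, went from 180 and 170 to 73.3 and 78.5 (log2 -1.20, SE 0.11, adjusted p = 3.4e-07). Srsf1, a general enhancer-binding factor, went from 474 and 539 to 213 and 236 (log2 -1.17, SE 0.10, adjusted p = 1.5e-07). In each of the 3 the groups were far apart beside the gap between replicates. Srsf9 (log2 -1.16), Srsf4 (-1.05) and Srsf10 (-1.03) fell about as much, and Srsf7 (-0.81), Srsf6 (-0.56), Srsf11 (-0.40) and Tra2b (-0.40) fell less. Srsf5 was at 160 and 139 in MB and 159 and 184 in MT, and its difference did not pass the test (log2 0.20, adjusted p = 0.15). Tra2a, at 11.1 and 6.78 against 3.68 and 5.85, was too low for a call (adjusted p = 0.075).

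Of the hnRNP genes, Hnrnpa1, a repressor that binds UAG-like motifs, was at 123 and 130 CPM in MB and 40.5 and 40.4 in MT (log2 -1.65, SE 0.13, adjusted p = 3.9e-08). Hnrnpd, whose protein AUF1 binds AU-rich elements, was at 677 and 745 against 244 and 233 (log2 -1.58, SE 0.10, adjusted p = 2.5e-09). Ptbp1, the polypyrimidine tract binding protein that represses muscle and neuronal exons, was at 122 and 103 against 42.9 and 38.6 (log2 -1.46, SE 0.14, adjusted p = 4.4e-07). None of these groups overlapped. Hnrnpm (-1.05) and Hnrnpa3 (-0.99) came next, and the other hnRNP genes that fell lay between -0.77 (Hnrnpl) and -0.36 (Hnrnpc), apart from Hnrnph1, which was at 2.93 and 2.87 in MB and listed at 0 in both MT libraries. Hnrnph3 rose from 42.3 and 36.5 to 58.3 and 50.5 (log2 0.47, SE 0.16, adjusted p = 0.018). Its rise was not called when libraries were scaled by their totals, where 28 genes fell (34.6% of genes). Nor was it called by DESeq2, where 25 fell (21.2%). Hnrnpa2b1 was not called, with 63.8 and 77.2 in MB and 62.6 and 66.8 in MT (adjusted p = 0.44).

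Other splicing genes were counted from lists set beside the members. Of 30 spliceosome core genes 24 fell, U2af2 (log2 -1.58) and Eftud2 (-1.24) among them. Of 12 SR-related genes 5 fell (Srrm1 -1.32, Pnn -1.06), and of 16 further hnRNP and related genes 9 fell (Khsrp -0.93 among them) while 2 rose (Taf15 1.49, Cirbp 1.01). The kinases of SR proteins were mixed: of 8, Srpk2 (0.84), Clk4 (0.45) and 1 more rose, and Prpf4b (-1.09) and Srpk1 (-1.08) fell. Cell state markers moved with the groups. The summed level of 11 myotube markers was 85.0 and 81.1 CPM in MB, where 9 of them were listed at 0, against 28442 and 27145 in MT. Proliferation markers summed to 3388 and 3112 in MB and to 377 and 373 in MT, and fibroblast markers to 9963 and 10088 in MB and to 12028 and 13023 in MT. The fibroblast sum was mostly Vim in MB (7842 and 8026 CPM), which fell to 1760 and 1974 in MT. By edgeR the other 5 of the 6 fibroblast markers rose, and the median log2 difference of the 6 was 2.24. The part of these shifts in the members' differences was not tested. In bulk RNA, fewer cells that express a gene and less of its RNA per cell cannot be told apart.

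**Figure D1:**
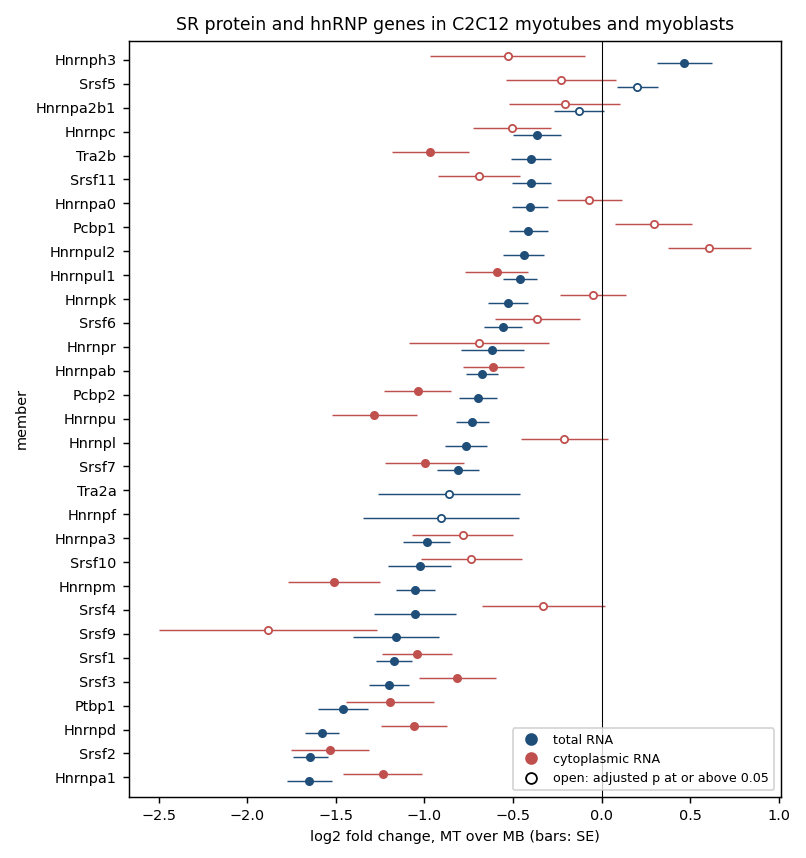
Log2 difference MT minus MB of each gene's CPM (x axis) with its standard error (bars), for total RNA (2 libraries a group) and untreated cytoplasmic RNA (2 a group), with open symbols where the edgeR adjusted p was 0.05 or more. Most genes lie left of 0 in both kinds of RNA, with Srsf2, Hnrnpa1, Hnrnpd and Ptbp1 far left in total RNA, and Hnrnph1, listed at 0 in MT, left out.

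Untreated cytoplasmic RNA gave a separate set of MB and MT libraries, and this comparison was added after the data were seen. Of 29 genes tested 13 fell (11.2% of genes), all 13 of them also called in total RNA, and none rose by edgeR (15.8% of genes did). An unadjusted p under 0.05, in either direction, was found for 18 members (62.1%) and for 40.3% of all genes. Hnrnpul2 among them was higher in MT (log2 0.61, edgeR adjusted p = 0.097), while it fell in total RNA (-0.44). Pcbp1, which also fell in total RNA (-0.41), was at 0.30 here (edgeR adjusted p = 0.35). Srsf2 stood at 871 and 1162 CPM in MB and 312 and 390 in MT (log2 -1.53, SE 0.22, adjusted p = 0.0032). Hnrnpm stood at 796 and 1225 against 311 and 398 (log2 -1.51, SE 0.26, adjusted p = 0.0058). Hnrnpu, whose protein is a scaffold of nuclear RNA, stood at 451 and 609 against 185 and 250 (log2 -1.28, SE 0.24, adjusted p = 0.0081). In all 3 genes the groups did not overlap. Hnrnpa1 (-1.24), Ptbp1 (-1.20), Hnrnpd (-1.06), Srsf1 (-1.04), Pcbp2 (-1.04), Srsf7 (-0.9996), Tra2b (-0.97), Srsf3 (-0.82), Hnrnpab (-0.61) and Hnrnpul1 (-0.59) made up the rest. The number called varied with single libraries: without the first or the second MT library 2 and 4 genes were called, and without the first MB library 22. These counts are given without the share of all genes, so they do not show whether the members moved more than other genes.

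The 3′UTR isoforms of these genes also differed between MB and MT. By the criteria of the study's methods (two-sided Fisher's exact test under 0.05 and a difference over 5 percentage points, the same way in both replicate pairs), 8 of 22 genes with 2 measured isoforms used the dPAS more in MT (9.4% of 3299 genes) and 1 used it less (3.36%). In Hnrnpa2b1, with an aUTR of 888 nt between the sites printed above, the dPAS took 62.5% and 64.9% of reads in MB and 85.8% and 85.3% in MT. In Hnrnpa1 (1730 nt) it took 21.0% and 20.0% against 48.8% and 43.6%. In Hnrnpa3 (2906 nt) it took 6.12% and 6.85% against 17.6% and 18.9%. For these 3 A/B-type hnRNPs the dPAS share was higher in both MT libraries than in either MB library. It stayed below the pPAS share in Hnrnpa1 and Hnrnpa3. Total reads fell in Hnrnpa1 and Hnrnpa3 and did not pass the test in Hnrnpa2b1.

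Hnrnpul2 (2084 nt) had dPAS shares of 18.0% and 24.6% in MB and 37.6% and 41.3% in MT. Among SR genes Srsf6 (1773 nt) went from 69.2% and 74.3% to 82.1% and 82.5%. Srsf7 (1232 nt), an SR protein with a zinc knuckle, went from 74.1% and 80.2% to 84.8% and 86.6%. The MB and MT values did not overlap in any of these. Smaller shifts passed in Srsf1 (2258 nt, 14.4% and 12.4% to 20.4% and 22.1%) and Hnrnpab (776 nt, 55.1% and 51.5% to 62.8% and 57.1%). Hnrnpul1 (317 nt) was the 1 gene in the other direction, with 62.7% and 65.9% in MB and 54.1% and 55.4% in MT.

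The relative expression difference (RED), the log2 ratio of dPAS to pPAS reads in MT minus that in MB, averaged over both pairs, was above 0 in 14 of the 22 genes (63.6%, against 61.7% of all genes), with a median of 0.35 against 0.18. It ran from 1.75 in Hnrnpa2b1 to -1.16 in Pcbp2, a C-rich binding protein whose dPAS share was 9.14% and 7.59% in MB and 3.32% and 4.60% in MT. One pair of Pcbp2 moved by -5.83 percentage points and the other by -2.99, so it met no call. A model of isoform by cell state in edgeR, which takes the spread between replicates into account, called 10 of the 22 (18.6% of genes in either direction), Pcbp2 among them (log2 -1.13, adjusted p = 7.7e-06). In the untreated cytoplasmic libraries 5 of the 9 genes called in total RNA had the same pair of sites, and their shares there were not tested. The share of Hnrnpul2 was 22.7% and 14.7% in MB and 40.5% and 36.5% in MT. Hnrnpa3, with few reads, was at 11.1% and 7.79% against 14.6% and 11.7%, and Srsf7 at 65.3% and 45.1% against 71.1% and 74.0%. In these 3 both MT values lay above both MB values, as in total RNA. Srsf6 lay the other way, at 73.7% and 74.0% in MB and 67.0% and 73.0% in MT, and Hnrnpul1 (63.3% and 48.3% against 60.6% and 57.3%) overlapped. For Hnrnpa2b1, Hnrnpa1, Srsf1 and Hnrnpab the 2 most used sites there were another pair, and their shares are not set beside those of total RNA.

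**Figure D2:**
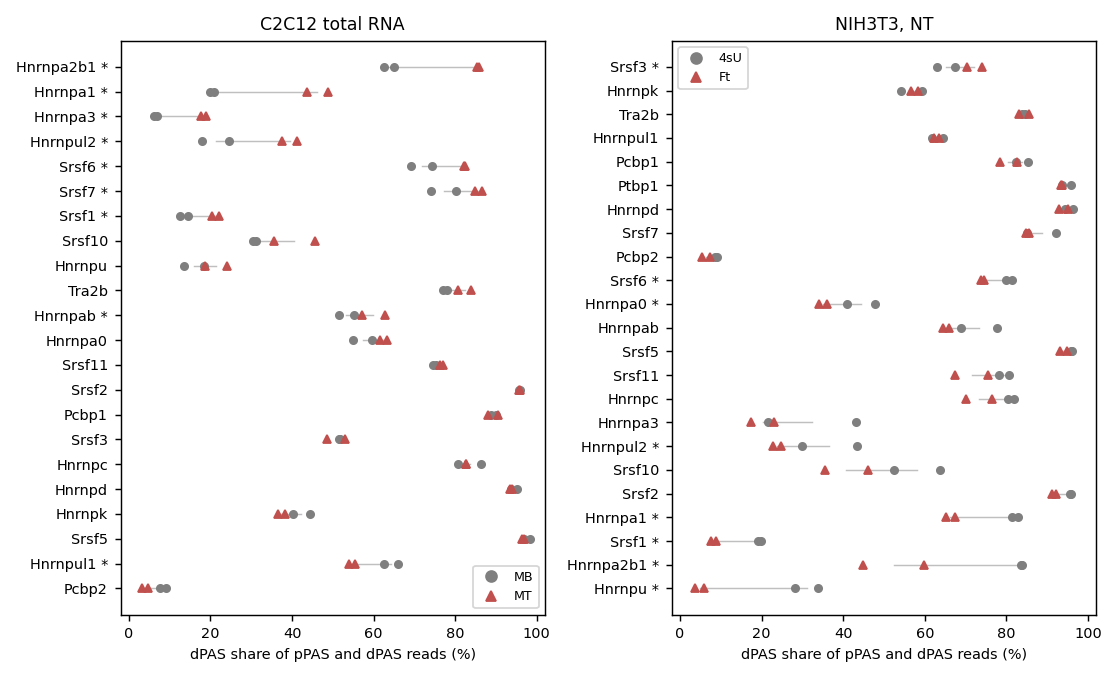
Share of the dPAS isoform (x axis, percent of pPAS and dPAS reads) for each gene, in C2C12 total RNA (left, MB circles and MT triangles, 2 libraries each) and in NT NIH3T3 cells (right, 4sU circles and Ft triangles, 2 samples each), with an asterisk where the Fisher criteria were met in both pairs. MT triangles lie to the right of MB circles in Hnrnpa2b1, Hnrnpa1 and Hnrnpul2, and Ft triangles to the left of 4sU circles in Hnrnpu, Hnrnpa2b1 and Hnrnpa1.

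The stress libraries of NIH3T3 asked how levels differ under AS and in recovery. RNA-seq, with 1 AS and 1 RC4 library, allows no test, and a gene was counted where it lay at least 1.5-fold above or below both NT libraries. The TRA2 genes had the largest values among the members in both conditions. In AS 3 of 33 genes were above (5.87% of 10723 genes) and none below (2.39%), and in RC4 9 were above (20.6%) and 1 below (24.2%).

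Tra2b, which binds GAA-rich exonic enhancers, was at 408 and 359 CPM in NT, 630 in AS and 1494 in RC4, and thus 3.90-fold over the NT mean at 4 h of recovery. Its paralogue Tra2a was at 182 and 190, then 326 and 605 (log2 0.81 in AS and 1.70 in RC4). Srsf11 was at 322 and 335, 522 and 445 (0.67 and 0.44), past the fold in AS and not in RC4. Both TRA2 genes had their highest value in RC4 and Srsf11 in AS. Srsf7 was at 251 and 279 in NT, 381 in AS and 611 in RC4 (0.52 and 1.21).

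On the hnRNP side Hnrnpc, which binds U tracts, was at 569 and 570 CPM in NT, 682 in AS and 1260 in RC4 (log2 1.15 in RC4). Hnrnpu was at 1480 and 1516, 1464 and 3065 (1.03). Ptbp1 was at 619 and 615, 649 and 1136 (0.88). For each the AS value was within 1.5-fold of NT and the RC4 value above it. Hnrnph2 (0.79), Hnrnph3 (0.74) and Pcbp2 (0.70) were the others above in RC4. Hnrnpr, a close relative of hnRNP Q, was the 1 gene below, at 126 and 122 in NT, 101 in AS and 53.4 in RC4 (-1.21). The median log2 difference in AS was 0.302 for the 12 SR genes and -0.001 for the 21 hnRNP genes, against -0.001 for all genes.

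The RC4 library depended on scaling. Its median over all genes was -0.07 on the log2 scale with TMM and -0.81 with library totals, and the members' medians were 0.43 and -0.31. With library totals 2 members were above and 10 below (7.7% and 54.8% of genes), and Hnrnph3 (-0.0015) and Pcbp2 (-0.046) turned below NT. Arsenite response genes were higher than both NT libraries in 7 of 9 in AS and 8 of 9 in RC4, as the labels have it. From the lists of other splicing genes, 4 of 9 SR protein kinases were above in RC4 (Dyrk1a 1.86, Clk3 1.18) and 1 below (Prpf4b -1.32), and in AS Clk1 (1.31) and Clk4 (0.89) were above and Clk2 (-0.77) below. Of 16 further hnRNP and related genes 8 were above in RC4 (Hnrnpll 1.76, Ewsr1 1.57) and 1 below (Pcbp4 -1.03), of 13 SR-related genes 3 (Scaf4 1.61, Rnps1 0.86), and of 33 spliceosome core genes 6 were above (Sf1 1.67, Dhx15 0.99) and 3 below (Prpf31 -1.13, Prpf4 -0.75 among them).

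**Figure D3:**
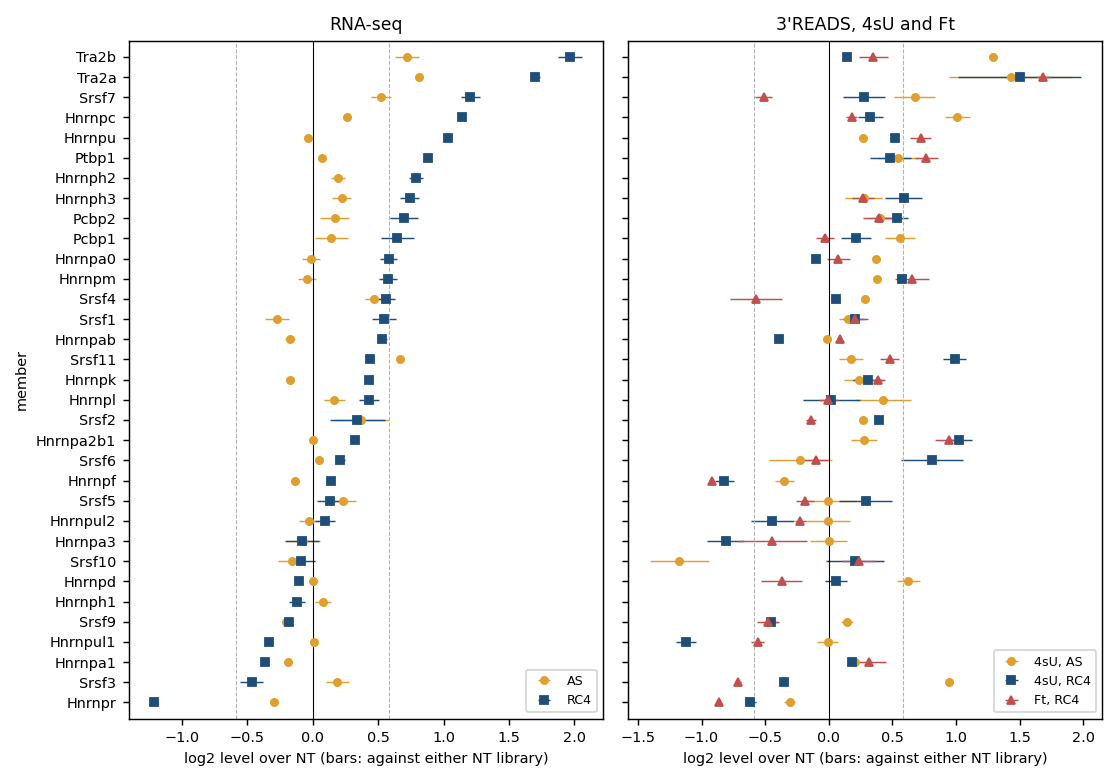
Log2 level of each gene over NT (x axis, mean of both NT libraries, bars reaching to the value against either) in RNA-seq AS and RC4 (left) and in 4sU AS, 4sU RC4 and Ft RC4 (right), 1 treated library each, with dashed lines at 1.5-fold. Tra2b and Tra2a lie farthest right in RNA-seq RC4 (1.97 and 1.70), and Hnrnpr farthest left (-1.21).

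The 4sU fraction measured RNA made in the hour before harvest. In AS 4 genes lay above both NT libraries (7.46% of 8683 genes) and 1 below (11.6%). Tra2b was at 423 and 424 CPM in NT and 1037 in AS (log2 1.29). Srsf3 was at 244 and 243 in NT and 469 in AS (0.94). Tra2a, at low depth, was at 6.91 and 14.2 and then 28.0 (1.43). For all 3 the AS library was above both NT libraries by more than the NT libraries differed. Hnrnpc was also above (1.01), and Srsf10, a splicing repressor when dephosphorylated, was below, at 36.6 and 50.6 in NT and 18.7 in AS (-1.18). In the Ft of the same AS cells 1 gene was above (Tra2a 0.67, 5.03% of genes) and 1 below (Hnrnpr -0.94, 6.67%).

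In the RC4 fractions, Tra2a (log2 1.50), Hnrnpa2b1 (1.02) and Srsf11 (0.99) were above in 4sU (18.5% of genes), and Hnrnpul1 (-1.12), Hnrnpf (-0.82) and Hnrnpa3 (-0.81) below (19.1%). In Ft, Tra2a (1.69), Hnrnpa2b1 (0.95), Ptbp1 (0.77) and Hnrnpu (0.72) were above (21.1%), and Hnrnpf (-0.92), Hnrnpr (-0.87) and Srsf3 (-0.72) below (18.5%). With library totals the median of all genes shifted to -0.305 in 4sU and -0.411 in Ft. The split was then 3 above (11.4% of genes) and 7 below (29.7%) in 4sU, and 1 above (11.6%) and 10 below (34.4%) in Ft. Tra2b, which was highest at RC4 in RNA-seq, was at 467 in 4sU of RC4 and at 541 in Ft, against 392 and 460 in Ft of NT. The RNA-seq and 3′READS libraries were made from different RNA, so the 2 sets of values stand side by side without a test.

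Total RNA gave a replicated test of AS with 3 libraries a condition, and the cytoplasmic input, given below, had 2. None of 31 genes was called by edgeR (0% of 9202 genes in either direction), none had an unadjusted p under 0.05, and DESeq2 and the fit with the replicate number as a block called none of the members. The edgeR test without the block also called 0 of 8 arsenite response genes, although their median log2 difference was 2.00. The absence of calls there thus does not show that levels stayed the same. With the block 3 members (9.68%, against 6.91% of all genes) had an unadjusted p under 0.05, Pcbp2 (log2 0.46, adjusted p = 0.39), Pcbp1 (0.42, adjusted p = 0.49) and Hnrnpa3 (-0.51, adjusted p = 0.60). Pcbp2 stood at 868, 534 and 703 CPM in NT replicates 1, 2 and 4 and at 1199, 799 and 886 in AS, higher in each of the 3 pairs. The farthest from 0 were Hnrnpf (log2 -0.67), Pcbp1 (0.47) and Hnrnpr (-0.46), all with an adjusted p of 1 without the block. The replicate sets differed more than the treatments did: Tra2b was at 412, 308 and 71.4 CPM in NT replicates 1, 2 and 4 and at 358, 395 and 115 in the AS libraries of the same numbers. Srsf2 ranged from 1266 to 5388 over the 3 NT libraries. None of 19 genes met the Fisher criteria for isoforms in replicates 1 and 2 (0.745% of 2955 genes had more dPAS and 2.67% less). In replicate 1 taken alone 7 met them and in replicate 2 taken alone 4, given without the share of all genes. Srsf10, with too few pPAS reads in replicate 1 to be tested, had dPAS shares of 100%, 10.53% and 81.40% over the 3 NT libraries.

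The recovery libraries all belonged to replicate 4. Against all 3 NT libraries, Hnrnpm (1.03) was above in RC4 (8.57% of genes), Srsf5 (-2.72) and Srsf3 (-0.995) were below (11.8%), Tra2a was below in RC8 (6%, and 3.9% above) and Srsf5 in RC12 (4.25%, and 2.15% above), and none was past the fold in RC24 (1.25% and 5.96%). Without NT replicate 4 the counts past the fold rose to 9, 11, 10 and 9, given without the share of all genes. Within replicate 4, where the NT library is 1, and with scaling set over all total RNA libraries of NIH3T3, Tra2b lay above NT at every time, by 0.68 in AS and 0.54, 0.40, 0.41 and 0.59 in RC4 to RC24. In RC4 Hnrnph3 (1.65), Hnrnpm (0.70), Hnrnpc (0.69) and Hnrnpa2b1 (0.62) were past the fold above NT (20.1% of genes). Srsf10 (-1.32), Srsf4 (-1.20), Srsf6 (-1.03), Srsf5 (-0.93), Hnrnpul1 (-0.68) and Srsf3 (-0.61) were past it below (22.7%). Neither count, 4 above and 6 below of 30 genes, exceeded the share of all genes, and each rests on 1 library a side. Reads were few in Hnrnph3 (6 in NT replicate 4 and 23 in RC4), Srsf10 (43 and 18) and Srsf4 (46 and 21).

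In cytoplasmic RNA of C2C12 cells Tra2b again stood above NT in recovery. It was at 294 and 408 CPM in untreated MB and 613 in RC4 (log2 0.82), and at 174 and 185 in untreated MT and 419 in RC4 (1.22). In MB it was the 1 gene above in RC4 (10.8% of 7505 genes), and Srsf5 (-1.38) and Hnrnpa0 (-0.70) were below (15.6%). In MT of RC4 there were 7 genes above (10.7%) and none below (11.3%), the others being Hnrnpm (0.97), Ptbp1 (0.89), Srsf7 (0.88), Srsf4 (0.82), Hnrnph3 (0.71) and Srsf11 (0.70). With library totals the median of all genes was -0.311 in MB and -0.188 in MT. None was then above (6.01% of genes) and 7 below (25.1%) in MB, and 3 were above (7.42%) and 1 below (17.2%) in MT. In AS Hnrnpl (0.92) was above in MB (8.05%, and 4.61% below). In MT of AS Srsf4 (1.34), Srsf2 (1.02) and Hnrnpm (0.83) were above (8.27%) and Hnrnpa3 (-1.19) and Hnrnpa0 (-0.69) below (6.97%). Single NT libraries moved the MB counts, since without the first MB library 9 genes were past the fold in AS and 14 in RC4. The shares of all genes are not given for these.

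The ratio of Ft to 4sU compares RNA made earlier with RNA made in the last hour and was used in the study as a measure of stability. In NT cells 7 of 31 genes were higher in Ft by edgeR (23.5% of 9669 genes) and 4 lower (25.9%). With the sample of origin as a replicate block 12 were higher (28.4% of genes) and 6 lower (30.8%), and with library totals, which put the median of all genes at -0.26, 4 were higher (16.9%) and 6 lower (32.1%). Without the first or the second Ft library 5 genes were called, a count given without the share of all genes.

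Srsf2 was at 926 and 897 CPM in 4sU and at 1598 and 1682 in Ft of the same samples (log2 0.85, SE 0.16, adjusted p = 0.00098). Pcbp2 was at 377 and 426 in 4sU and 665 and 794 in Ft (log2 0.86, SE 0.17, adjusted p = 0.0014). Srsf9 was at 27.6 and 25.8 against 45.3 and 51.3 (log2 0.86, SE 0.23, adjusted p = 0.0089). In these genes both Ft libraries lay above both 4sU libraries. Hnrnpul1 (0.68), Pcbp1 (0.59), Hnrnpa0 (0.47) and Srsf3 (0.40) were the others higher in Ft. Srsf10 lay the other way, at 36.6 and 50.6 in 4sU and 17.3 and 21.0 in Ft (log2 -1.20, SE 0.27, adjusted p = 0.0034). Hnrnpa2b1 was at 149 and 172 against 86.0 and 101 (log2 -0.78, SE 0.18, adjusted p = 0.0036), and Srsf6 (-0.52) and Hnrnpul2 (-0.46) were the other genes lower in Ft.

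The lists of other splicing genes split by kind. Of 31 spliceosome core genes 18 were higher in Ft, such as Snrpe (1.51) and Snrpd2 (1.43) of the Sm ring, and 2 lower (Prpf4 -1.49, Dhx15 -0.52). Of 8 SR protein kinases 7 were lower in Ft (Clk1 -1.94, Dyrk1a -1.88), and of 12 SR-related genes 8 (Srek1 -1.49, Rbm39 -1.23). Among 16 further hnRNP and related genes 4 were higher (Cirbp 0.96, Pcbp4 0.80) and 6 lower (Ptbp2 -1.50, Rbmx -1.13).

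Isoforms of one gene differed between the fractions as well, a comparison added after the data were seen. Of 23 genes 7 had a smaller dPAS share in Ft by the Fisher criteria (15.6% of 3104 genes) and 1 a larger one (0.805%), and the mean RED, Ft over 4sU, was above 0 in 3 of the 23 (13%, against 26.5% of all genes), with a median of -0.58 against -0.40. In Hnrnpu the dPAS of the fractions lay 7928 nt from the pPAS along the genome, past the annotated end, and annotated transcripts of the gene have spliced exons in between. Its share was 28.3% (414 reads) and 33.9% (761) in 4sU and 3.69% (54) and 5.93% (80) in Ft of NT cells. In AS it was 49.61% of 4sU reads (Wilson interval 47.02 to 52.21%) and 4.4% of Ft reads (3.36 to 5.73%), and in RC4 40.84% (39.17 to 42.53%) and 5.71% (4.74 to 6.87%). The 4sU shares of both treated libraries lay above both NT samples, while the Ft shares stayed within the NT range.

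In Hnrnpa2b1 the dPAS took 83.9% and 83.5% of 4sU reads and 59.8% and 44.9% of Ft reads in NT, 78.31% and 52.35% in AS, and 91.83% and 64.68% in RC4. The 4sU share was above the Ft share in all 4 samples. In Srsf1 it took 19.9% and 19.1% of 4sU reads and 8.89% and 7.63% of Ft reads in NT. In AS the 4sU share was 7.97% (6.59 to 9.6%) and the Ft share 7.56% (6.29 to 9.08%), and in RC4 they were 13.66% (12.36 to 15.08%) and 5.77% (4.67 to 7.11%). The 4sU share of Srsf1 was thus below both NT samples in AS and RC4, and in AS the fractions differed by less than their counting error.

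Hnrnpa1, with the 2 sites 374 nt apart used in NIH3T3, went from 82.9% and 81.5% in 4sU to 65.2% and 67.4% in Ft of NT cells. Hnrnpul2 (29.9% and 43.3% to 22.9% and 24.7%), Hnrnpa0 (41.0% and 47.7% to 35.9% and 34.0%) and Srsf6 (79.9% and 81.4% to 74.4% and 73.9%) followed. Srsf3 was the 1 gene with a larger share in Ft, from 63.1% and 67.4% to 70.4% and 73.9%, for a pair of sites 156 nt apart. The edgeR model of isoform by fraction called 5 of the 23 genes (15.4% of genes), all with a smaller dPAS share in Ft, and 10 with the replicate block (24.7%). A longer isoform holds more Us to label, and over 9498 genes log2(Ft/4sU) fell with the log2 number of Us (slope -0.589, r -0.574, across genes, which are not replicates). The part of the number of Us in the isoform differences was not tested.

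For the level of a whole gene, log2(Ft/4sU) was adjusted for the number of Us by regression. In NT cells 20 of 31 genes lay above the median of all genes, at a median percentile of 56.3. The treated conditions had 1 library per fraction and no test. In AS 10 of 31 genes were above the median of all genes (median percentile 39.7), and in RC4 17 (52.4). Of the 30 genes measured in both NT samples and both conditions, the AS value was below both NT samples in 22 (73.3%, against 41.4% of 7701 genes) and above both in 3 (37.3% of genes). The RC4 value was below both in 17 (56.7%, against 39.1% of genes), 9 of 12 SR genes and 8 of 18 hnRNP genes, and above both in 4 (39.9% of genes). The median difference from NT was -0.31 in AS and -0.14 in RC4, against -0.06 and -0.02 for all genes. In AS 86.7% of the 30 genes were below the NT value, against 54.2% of all genes, and in RC4 66.7%, against 51.7%. Without the adjustment 21 genes were below it in AS and 20 in RC4, given without the share of all genes.

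The genes took different paths. Hnrnpc was at 0.68 and 0.80 on the adjusted log2 scale in NT, -0.15 in AS and 0.48 in RC4. Tra2b was at -0.004 and 0.22 in NT, -0.71 in AS and 0.18 in RC4. Srsf3 was at 0.54 and 0.57 in NT, -0.11 in AS and 0.06 in RC4. These 3 genes, all above NT in 4sU reads of AS cells, had their lowest ratio in AS, and the ratio holds those same 4sU reads. A further pattern was a low ratio in RC4 alone: Srsf6 was at 0.15 and -0.13 in NT, 0.10 in AS and -1.04 in RC4. Srsf7 was at 0.10 and -0.34, then -0.13 and -1.03, and Srsf4 at -0.17 and 0.31, then -0.16 and -0.71. Srsf10 stood apart with -0.30 and -0.49 in NT, 1.23 in AS and -0.96 in RC4. Its AS value rests on 36 4sU reads and 58 Ft reads, and holds its low 4sU level in AS cells. Hnrnpul1 was highest in RC4 (0.95 and 1.04, 0.74 and 1.43).

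**Figure D4:**
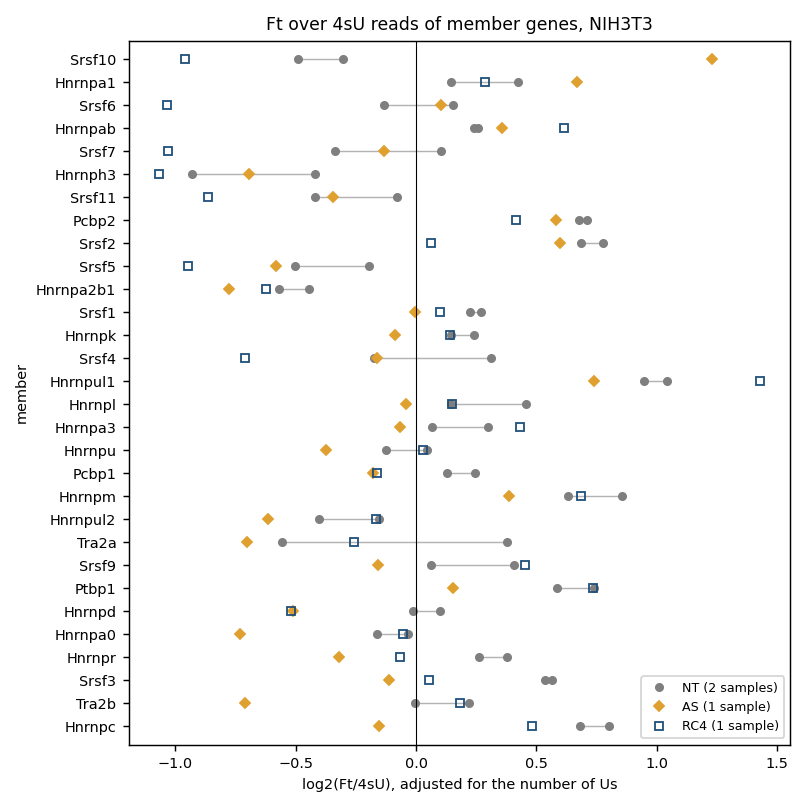
Log2(Ft/4sU) adjusted for the number of Us (x axis) for 30 genes in NT (2 samples, grey), AS and RC4 (1 sample each), ordered by the difference of AS from the NT mean. The AS symbols lie left of both NT points in 22 genes, and Srsf10 is the gene farthest to the right in AS (1.23).

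TIA1 is an RNA-binding protein that prefers U-rich sequence and enters stress granules, and its libraries asked which transcripts it binds in the cytoplasm of NT and AS cells. The members showed no general excess in the precipitate. The relation of their U-rich 3′UTRs, described above, to TIA1 binding was not tested. In NT cells none of 32 genes was called by edgeR (1.73% of 9601 genes were higher with TIA1 and 1.5% lower), 8 (25%) had an unadjusted p under 0.05, against 22.1% of all genes, and DESeq2 called 3 higher (6.51% of genes) and 1 lower (6.81%). In AS cells none was called (0.167% and 0.406% of genes), 3 (9.38%) had an unadjusted p under 0.05, against 20.1% of all genes, and DESeq2 called none higher (5.19%) and 1 lower (6.22%). Input and precipitate of one number and condition came from 1 lysate by the study's methods, and fits that took this pairing into account called more. With the replicate number as a block edgeR called 3 members higher (9.19% of genes) and 2 lower (9.35%) in NT, and 4 higher (9.67%) and 1 lower (7.38%) in AS. With a term for each lysate, a fit added after the data were seen, it called 3 higher (9.21%) and 3 lower (9.75%) in NT, and 4 higher (9.55%) and 1 lower (7.9%) in AS. The median log2(TIA1/Input) was -0.32 in NT, against 0.09 for all genes, and -0.02 in AS, against 0.17.

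Srsf10 was highest in both conditions among the genes with reads in every group. It was at 21.2 and 18.2 CPM in the NT input and 45.5 and 114 with TIA1 (log2 2.01, SE 0.53, adjusted p = 0.070), and at 19.7 and 24.0 against 63.6 and 77.1 in AS (log2 1.69, adjusted p = 0.12). Hnrnpa0 was at 299 and 477 in the NT input and 795 and 2064 with TIA1 (log2 1.88, adjusted p = 0.12), and at 214 and 494 against 556 and 1145 in AS (log2 1.27, adjusted p = 0.28). Hnrnpk, a C-rich binding protein, was at 54.7 and 77.2 against 143 and 146 in NT (log2 1.13, adjusted p = 0.14) and at 70.8 and 104 against 191 and 225 in AS (log2 1.26, adjusted p = 0.12). For these genes both TIA1 libraries lay above both input libraries in NT and in AS, and all 3 were called in both conditions with the lysate terms (edgeR adjusted p from 0.0013 to 0.024). In AS Srsf6 (log2 0.83, adjusted p = 0.048) was also higher and Srsf5 (-1.08, adjusted p = 0.030) lower in that fit. At the other end Hnrnpa2b1 was at 49.1 and 70.0 in the NT input and at 27.5 and 9.68 with TIA1 (log2 -1.69, adjusted p = 0.15). It was lower with the lysate terms (log2 -1.83, edgeR adjusted p = 0.034), as were Hnrnpul2 (-1.10, 0.029) and Hnrnpa1 (-1.09, 0.0497), the last of which was not called with the number as a block. Srsf4 and Hnrnph1, each listed at 0 in both libraries of a group in NT, are given no ratio. Of the other splicing genes, 1 of 16 further hnRNP and related genes was higher with TIA1 in both conditions (Rod1, log2 2.66 in NT and 2.53 in AS), 1 of 31 spliceosome core genes was higher and 1 lower in NT (Sf3b2 -2.06), and no SR-related gene or SR protein kinase was called. The difference in binding between AS and NT called none of 32 genes by edgeR or DESeq2 (0% of genes by edgeR in either direction, and no member with an unadjusted p under 0.05), nor with either block, and neither did the input of AS against NT (0.0104% of genes higher, 0% lower, and 1 member with an unadjusted p under 0.05).

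**Figure D5:**
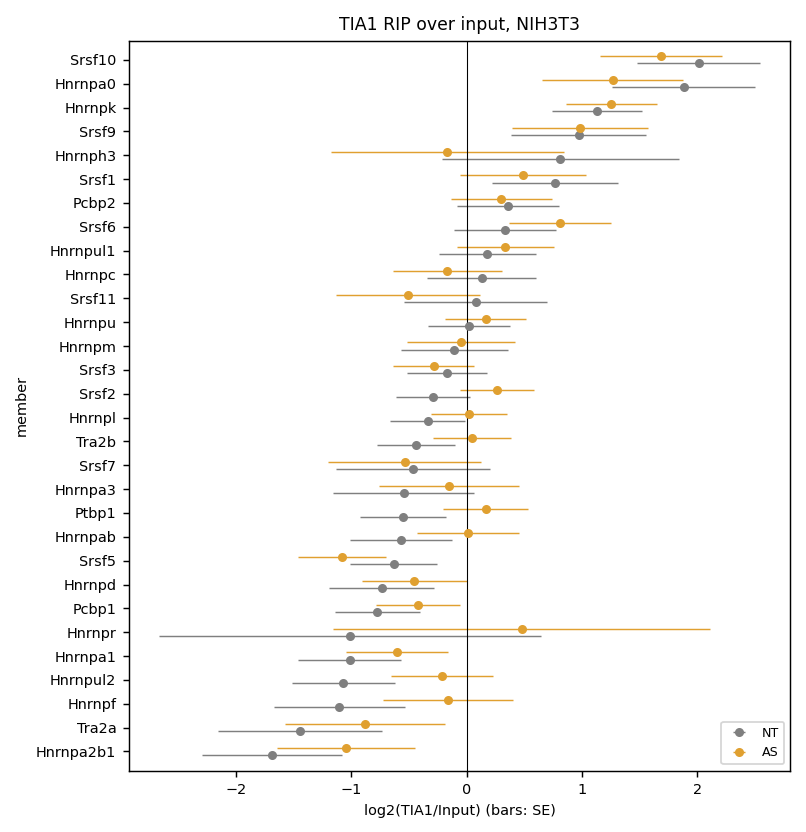
Log2(TIA1/Input) of 30 genes (x axis) with its standard error (bars), in NT and AS cells (2 libraries of each kind a condition), ordered by the NT value. Srsf10, Hnrnpa0 and Hnrnpk lie right of 1 in both conditions and Hnrnpa2b1 left of -1, with none of the genes called in this fit, which has no block, and Srsf4 and Hnrnph1 are left out because they were listed at 0.

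Within genes, isoform use was compared between TIA1 and input. By the Fisher criteria 4 of 18 genes had a higher dPAS share with TIA1 than in the input in NT (21% of 1885 genes) and none a lower one (2.23%), and in AS 7 of 20 had a higher share (17.6% of 2047 genes) and none a lower one (1.81%). The mean RED was above 0 in 16 of 18 (88.9%, against 71.6% of all genes) and in 19 of 20 genes (95%, against 69.4%), and its median was 0.49 in NT, against 0.53 for all genes, and 0.64 in AS, against 0.48. The edgeR model of isoform by precipitation, which sets the shift against the spread between replicates, called none of them and 0% of genes in either condition. The 4 genes in NT were Hnrnpab, with 78.7% and 75.1% in the input and 91.2% and 90.7% with TIA1, Hnrnpu (67.4% and 74.2% to 80.3% and 79.8%, for a pair of sites 279 nt apart), Hnrnpul1 (47.0% and 56.8% to 54.5% and 65.7%) and Srsf6 (77.8% and 67.6% to 83.1% and 72.9%). The input and TIA1 shares did not overlap in Hnrnpab and Hnrnpu and overlapped in Hnrnpul1 and Srsf6, where the replicates differed by more than the shift.

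In AS the widest shifts were in Srsf10, from 43.1% and 63.6% in the input to 79.7% and 88.3% with TIA1, and in Hnrnpa3, from 47.8% and 46.7% to 68.7% and 78.9%. Some pairs of sites were other ones than in the sections above. The Hnrnpa3 dPAS lay 456 nt from the pPAS here, nearer than the C2C12 dPAS printed above. The Hnrnpab sites were 975 nt apart. The Srsf3 sites were 633 nt apart, and this dPAS was the pPAS of the 4sU and Ft fractions. Srsf7 went from 72.5% and 78.4% to 89.96% and 94.8%, and Hnrnpab from 77.7% and 74.0% to 87.6% and 89.5%. These 4 did not overlap, nor did Srsf3 (43.5% and 43.9% to 50.9% and 56.5%) or, by a narrow margin, Srsf6 (70.8% and 59.9% to 77.1% and 70.9%). Srsf1 (36.7% and 21.1% to 50.8% and 31.1%) moved the same way within each pair, with values that overlapped between the pairs. Hnrnpab and Srsf6 met the criteria in both conditions. Whether the dPAS excess differs between AS and NT was not tested.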

How the data were processed

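The 3′READS and RNA-seq files hold read counts that the authors deposited, per PAS position in 3′READS and per gene in RNA-seq. The study's methods and the submitters' processing notes name cutadapt, Bowtie2 (3′READS), STAR (RNA-seq) and the mm9 build, with reads kept when well mapped and, in 3′READS, when they carried extra Ts that the genome lacks. PAS positions (99725) within 24 nt of each other were joined into 83916 clusters and assigned to genes of the mm9 annotation, and 540 clusters that could belong to more than 1 gene were left out. The RNA-seq files held 8 rows with a repeated symbol, which were left out. Reads were summed per gene, and genes left after a filter on low counts were tested. That filter kept some genes with a mean under 20 reads, Hnrnph1 in MT against MB among them. The test was edgeR's quasi-likelihood test (4.0.16, limma 3.58.1, R 4.3.3) on TMM-scaled counts. Benjamini-Hochberg adjustment ran over all genes tested, with a threshold of 0.05. DESeq2 1.42.0 was an alternative. Scripts ran in Python 3.11.15 with pandas 2.3.3, scipy 1.17.1, pysam 0.24.0 and matplotlib 3.10.9, and each test was checked on simulated data.

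Comparisons with 1 treated library have no test. There a gene with a mean of 20 reads or more was counted when its level, with an offset of 2 reads, was 1.5-fold from every NT library. Isoforms were the 2 most used PASs of the last exon, at most 10000 nt apart, with more than 5 reads each. Stability values used PASs with at least 20 reads over the fractions and genes with at least 10 in each fraction. Genes of the 33 were named when called or past the fold (up to 10 per comparison by size, else the 3 largest), isoforms when each had at least 50 reads, sites outside the last exon from 10% of a gene's reads, and other splicing genes up to 2 per direction and list. Members beyond the first 10 of the MT and Ft comparisons are given with their log2 value only. The members, gene lists and tests were chosen with earlier results of these data known.

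Replicate numbers paired the total RNA libraries of NT and AS (correlation of deviations from the group means 0.896, 0.883 and 0.833), and the Ft and 4sU fractions came from the same samples (0.281). Input and TIA1 libraries of one number came from 1 lysate in each condition (0.372 in NT and 0.422 in AS), while NT and AS shared only the number there. RNA-seq counts were of coding sequence by the study's methods.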

Additional observations from a re-analysis of the deposited data

Results flagged for a closer look

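In cytoplasmic RNA of C2C12 cells, Hnrnpm lay 0.707 below NT on the log2 scale in AS myoblasts (-0.707) and 0.83 above in AS myotubes, a difference of 1.537, and each treated library was on its side of both NT libraries. Srsf11 at 4 h of recovery was at -0.16 in myoblasts and 0.703 in myotubes, a difference of 0.863, again with each treated library on its side of both NT libraries. With 1 treated library in each cell state neither difference was tested.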

How the results depend on the processing

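Of the values recomputed for whole comparisons, 169 kept their direction and side of the threshold, or moved by less than 1.5 times, and 17 became stronger, 13 weaker and 35 moved. The single-gene values split into 922, 16, 67 and 47, with 2 reversed (Hnrnph3 -0.0015 and Pcbp2 -0.0462, RNA-seq RC4 with library totals). With TIA1 in NT, 2 of 32 genes were called with no filter on low counts (9% of all genes) and 4 by DESeq2 (13.3%). There 5 were called with a replicate block (18.5%) and 6 with the block by lysate (19%). In AS 1 was called by DESeq2 (11.4%) and 5 with either block (17.1% and 17.4%). The libraries of MT and MB share only a number (correlation 0.055), and the block changed no call count in total RNA (28, with 61.6% of all genes called without it and 63.4% with it). In Ft against 4sU the block gave 18 calls among 31 genes (59.2% of all genes), and in the other tests with a block no count moved by over 1.5 times.

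The counts in this paragraph are of the members only, without the share of all genes. Isoform calls with a limit of 10 percentage points were 4 (MT against MB), 1 and 3 (TIA1 in NT and AS) and 4 (Ft against 4sU). The edgeR isoform model called 0 with and without the replicate block for TIA1 in NT and AS, and 5 without it for Ft against 4sU. With a 2-fold limit the counts were 0 (RNA-seq AS), 6 (RNA-seq RC4), 0 (total RNA RC4, RC8 and RC12), 1 and 2 (4sU AS and RC4), 0 and 1 (Ft AS and RC4), 0 and 1 (myoblast AS and RC4) and 2 and 1 (myotube AS and RC4). With library totals they were 10 (4sU RC4), 11 (Ft RC4), 7 (myoblast RC4) and 4 (myotube RC4). Within the time-course set, chosen after seeing the data and with scaling factors recomputed without NT replicates 1 and 2, they were 9, 4, 3 and 3 for RC4 to RC24.

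Leaving out 1 library or pair gave these ranges, which count the members only, without the share of all genes. Calls by edgeR ran from 21 to 27 (MT against MB), from 5 to 11 (Ft against 4sU, 5 without either Ft library) and from 2 to 22 (cytoplasmic MT against MB), and stayed at 0 in the total RNA, TIA1 and input tests. The lone library was then taken to vary like the others, and these fits were added after seeing the data. Isoform calls on 1 pair ran from 4 to 7 (total RNA), from 10 to 14 (MT against MB, 14 without replicate 3), 8 (TIA1 in NT, either pair), from 11 to 13 (TIA1 in AS, 13 without replicate 1) and from 9 to 14 (Ft against 4sU, 14 without replicate 1). Members past the fold, with fewer NT libraries to clear, ran from 3 to 4 and from 12 to 13 (RNA-seq AS and RC4), from 3 to 9, 2 to 11, 1 to 10 and 0 to 9 (total RNA RC4 to RC24, the highest without NT replicate 4), from 8 to 9 and from 8 to 10 (4sU AS and RC4), 3 and 9 (Ft AS and RC4), from 2 to 9 and from 5 to 14 (myoblast AS and RC4, the highest without NT replicate 1), and from 7 to 8 and 10 (myotube AS and RC4). Members above the median stability ran from 18 to 19. The causes of these shifts beyond the samples and limits changed were not tested. Tra2a, Hnrnpf, Hnrnph1, Hnrnph2 and Hnrnpr had few 3′READS reads, so differences in them were mostly not detectable at this depth. Srsf4, Srsf10 and Hnrnph3 also had few reads in single libraries.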
